A study of Mus musculus with 11 samples.

Results

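The genes for kinesin and dynein, the motors that pull cargo along microtubules, were examined in RNA bound to ribosomes of mouse Purkinje cells. Members were chosen by symbol: every gene named Kif followed by a digit, Klc1 to Klc4, every Dync1 and Dync2 subunit, the dynein light chains of the Dynll, Dynlr and Dynlt series, and Dctn1 to Dctn6. The rule took 69 of the 55421 genes in the files, of which 46 belong to the kinesin side and 23 to dynein and its partner complex dynactin. It also took a few entries that are no motors: Kif1bp encodes a kinesin-binding protein, Kif16bos is an antisense transcript, and Dynlt1-ps1, Kif22-ps and Kif4-ps are pseudogenes. Reads sufficed to test 45 members, 26 kinesin and 19 dynein or dynactin genes.

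The libraries came from whole cerebellum of 11 mice at postnatal day 56, with 1 library per mouse. The 4 knockouts had the genotype Pcp2Cre;Tie2flox/flox;Rpl22HA/HA and the 7 controls Pcp2Cre;Rpl22HA/HA, so that every animal carried Cre and the tagged ribosomal protein. Cre is under the Pcp2 promoter, a promoter used for its activity in Purkinje cells. It switches on an HA tag on Rpl22, and antibody against the tag pulls down the ribosomes with their RNA. In the knockouts Cre also recombines the floxed Tie2 gene, Tek, which encodes a receptor for angiopoietins. The comparison asks how RNA being translated in Purkinje cells differs where Tie2 is lacking. The labels give 3 batches: batch 1 holds knockouts F371 and M374 and control M379, batch 2 knockout M390 and control M386, and batch 3 knockout M456 and controls F473, M476, M477, M479 and M480. The labels give neither litters nor shared parents, so the tests treat the mice as independent, and any kinship between them is not modelled.

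As background, kinesins mostly walk toward the growing end of microtubules, which in axons points away from the cell body, and cytoplasmic dynein walks the other way. Kinesin-1, with heavy chains Kif5a, Kif5b and Kif5c and light chains that bind cargo, and kinesin-3, with Kif1a and Kif1b, carry vesicles and mitochondria outward. Dynein works with dynactin, whose largest subunit, Dctn1, binds both the motor and the microtubule. Purkinje cells have very large dendrites with microtubules of mixed direction and a long axon to the deep nuclei, and mutations in several motor genes are known to cause disease of neurons.

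The 250 bases before the start listed in the RefSeq promoter table (build GRCm38.p6) are shown here for 3 called members, so that their composition can be seen beside the values: Kif17 and Klc4, with the largest falls, and Kif1b, with the largest rise among the higher members with an entry. They are printed 5′ to 3′ in the direction of the gene. Capitals mark matches, on either strand, to the cyclic AMP response element TGACGTCA, the E-box CACGTG or the GC box GGGCGG, which do not overlap one another in these windows.
Kif17, chr4:138262001-138262250, plus strand: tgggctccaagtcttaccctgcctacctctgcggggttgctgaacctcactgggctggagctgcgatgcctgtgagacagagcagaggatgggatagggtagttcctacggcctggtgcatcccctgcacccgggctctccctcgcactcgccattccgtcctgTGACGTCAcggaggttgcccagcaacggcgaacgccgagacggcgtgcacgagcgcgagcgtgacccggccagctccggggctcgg
Klc4, chr17:46646081-46646330, minus strand: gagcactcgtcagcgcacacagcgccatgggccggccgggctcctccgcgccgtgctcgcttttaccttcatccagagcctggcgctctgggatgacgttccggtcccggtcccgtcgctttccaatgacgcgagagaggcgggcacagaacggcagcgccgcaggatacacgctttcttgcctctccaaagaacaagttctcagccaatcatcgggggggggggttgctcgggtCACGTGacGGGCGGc
Kif1b, chr4:149307699-149307948, minus strand, 1 of its 2 listed starts: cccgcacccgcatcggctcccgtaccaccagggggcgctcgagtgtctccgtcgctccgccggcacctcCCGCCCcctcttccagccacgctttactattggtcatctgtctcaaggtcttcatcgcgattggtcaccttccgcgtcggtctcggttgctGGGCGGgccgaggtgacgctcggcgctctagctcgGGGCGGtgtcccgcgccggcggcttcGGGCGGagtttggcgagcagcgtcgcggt

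All 3 windows are rich in CG dinucleotides, with 22 in Kif17, 27 in Klc4 and 35 in Kif1b, and their GC contents were 66.4%, 65.6% and 69.6%. The response element of Kif17 starts 86 bases before the listed start, the E-box of Klc4 15 bases and its GC box 7 bases before it. The Kif1b window was chosen from its 2 listed starts by the count of motif matches. It holds 4 GC boxes, starting 181, 90, 55 and 29 bases before the listed start. The listed start is not always the outer end of the annotated gene: the last 109 bases of the Klc4 window, with both of its motifs, and the last 75 of the Kif1b window, with its last 2 GC boxes, lie inside the gene spans given below. Promoter entries were matched for 50 of 69 members and 32 of the 45 tested ones. The response element stands in 4 of these 32 (12.5%: Dctn3, Kif17, Kif5c and Klc1) and in 3.15% of the 10171 tested genes with an entry. Of those 4 genes only Kif17 passed the test below. The E-box stands in 2 of 32 (6.25%, Klc4 and the second listed start of Kif1a) against 9.91%, and the GC box in 19 of 32 (59.4%) against 63.7%. The FoxO core TGTTTAC was found in 1 of 32 (3.12%, Dctn2) against 2.66%, TATAAA in 4 of 32 (12.5%) against 7.93%, and the NRF1 motif in 1 of 32 (3.12%, Dync1li1) against 1.90%. A match describes these letters and is no evidence of binding.

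Ribosome-bound RNA of 15 motor genes differed between knockouts and controls, with calls in both directions in kinesin-1 heavy chains, kinesin-3 and dynactin. Dynll2, Kif1b, Kif21a, Kif5b and Dctn4 were higher in knockouts, while Kif17, Klc4, Kif3c, Klc2, Kif1a, Dync2li1, Dctn1, Kif5a, Dctn5 and Dctn2 were lower. Levels are in CPM, reads scaled to a common library size (counts per 1e6 reads in genes) with TMM factors. Differences are log2 fold changes, knockout over control, ± SE, from edgeR's quasi-likelihood test with batch and genotype over 13375 genes, with Benjamini-Hochberg adjustment over all of them and a threshold of 0.05. By this rule 33.3% of the 45 tested members passed, beside 24.4% of all tested genes. The 5 higher members stand beside 10.9% of all genes called higher, and the 10 lower members beside 13.4% called lower. The median log2 fold change of the tested members was -0.01, and that of all tested genes -0.02. All 4 knockouts lay below all 7 controls in 5 of 45 members, where 6.77% of all genes did, and above them in 0 of 45, where 6.20% of all genes did.

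**Figure D1:**
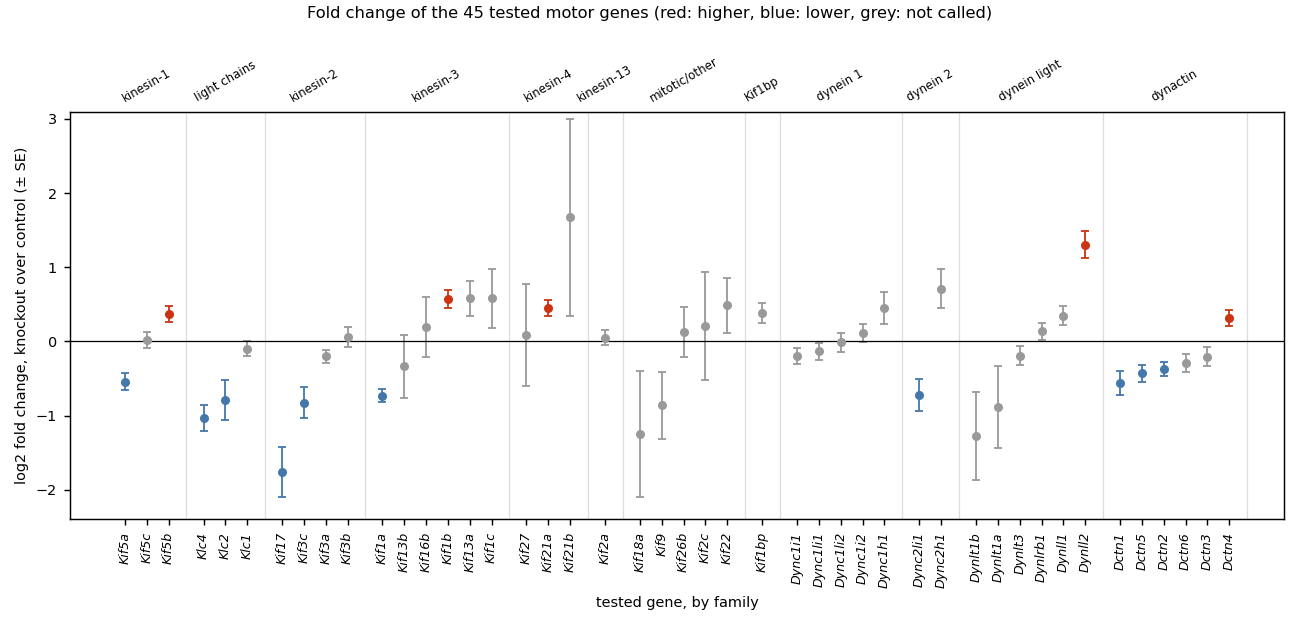
Log2 fold change (knockout over control, ± SE) of the 45 tested motor genes, ordered by family along the horizontal axis; red points passed the test as higher, blue as lower and grey did not pass. Called genes of opposite direction stand side by side in kinesin-1 heavy chains (Kif5a and Kif5b), kinesin-3 (Kif1a and Kif1b) and dynactin (Dctn4 and the 3 lower subunits), and no subunit of cytoplasmic dynein 1 passed.

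Depth and the balance of cell type markers moved with genotype. Libraries held 2.58 to 4.20 M reads in genes in knockouts and 4.09 to 5.14 M in controls (M, 1e6 reads), a within-batch difference of -0.47 in log2 reads (two-sided exact permutation test, p = 0.0278, the smallest that 36 arrangements allow). Purity was scored per library as log2 CPM averaged over 16 Purkinje markers, less the average over markers of granule cells, astroglia and oligodendrocytes. This score differed by -0.84 within batches, lower in knockouts (same exact permutation test, p = 0.0278). Purkinje markers summed to 6303 to 7317 CPM in controls and 6149 to 8433 in knockouts, with 4 of 16 higher and 2 lower by edgeR's test. Granule cell markers passed as higher in 8 of 12 (432 to 869 CPM summed in controls, 570 to 1699 in knockouts), Bergmann glia and astrocyte markers in 8 of 13 (339 to 578 and 437 to 1261), and oligodendrocyte markers in 3 of 12 (345 to 768 and 402 to 1041). Microglial markers passed as higher in 3 of 9, endothelial and mural in 1 of 9, interneuron and unipolar brush cell in 4 of 6, choroid plexus in 2 of 5, ependymal in 0 of 4 and dividing-cell markers in 0 of 3, and none of these lists had a lower one. No marker was at 0 in every library, but Mki67, Cdk1 and Pax2 were at 0 in 5 libraries each, and P2ry12, Rsph4a and Top2a in 4 each. In such pooled tissue, fewer cells of a type and less RNA per cell cannot be told apart. Nor can either be told apart from a change in RNA carried over through the pull-down.

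With the purity score or the library total added to the model, 0 of the 13375 genes passed, where 1538 and 1841 had an unadjusted p under 0.05 by edgeR's test (7 and 12 of the 45 members). All 15 called members kept their sign under both. With the library total, the 5 higher genes had log2 fold changes of 0.08 to 0.71 and the 10 lower genes -0.90 to -0.07, with adjusted p between 0.231 and 0.871. With the purity score these ranges were 0.18 to 1.25 and -1.15 to -0.20, with adjusted p between 0.288 and 0.710. With the library total Kif1a was at -0.60 ± 0.12 and Klc4 at -0.78 ± 0.23, while Dctn1 moved to -0.07 ± 0.16.

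**Figure D2:**
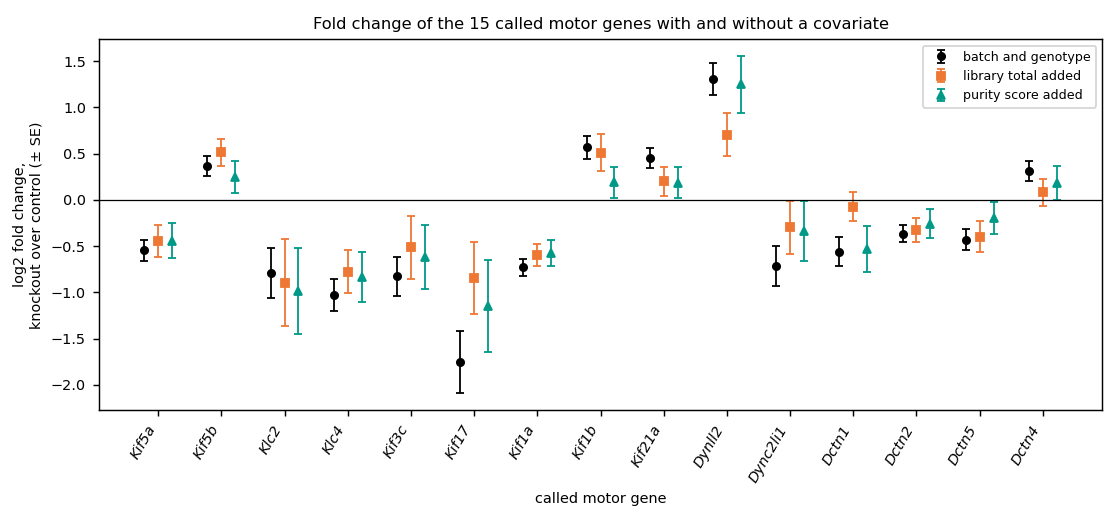
Log2 fold change (knockout over control, ± SE) of the 15 called motor genes in the model with batch and genotype (black), with the library total added (orange) and with the purity score added (green). No point crosses 0, while Kif17 shrinks from -1.75 to -0.85 with the library total and Dctn1 from -0.56 to -0.07.

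The comparison rests on few libraries, and 12 of the 15 calls were lost without control M379, the only control of batch 1, and without knockout M456, the only knockout of batch 3. Over all genes the test then called 522 and 335 in place of 3257. With batch in the model, a batch left with only knockouts or only controls no longer informs the difference between genotypes. Without M379 the knockouts of batch 1 thus drop out of the comparison, and without M456 the controls of batch 3 do. Leaving out M390 or M386 likewise takes all of batch 2 out of it. Dependence on a single animal and loss of a batch cannot be told apart here. Dynll2, Kif1a and Klc4 were called whichever library was left out. Batch 2 showed the smallest difference of the 3 batches in 13 of the 15 called genes: the median size of their log2 ratio was 0.84, 0.20 and 0.65 in batches 1, 2 and 3. In batches 1 and 3 all 15 had the sign of the fit, and in batch 2 Kif21a, Dync2li1 and Dctn4 had the opposite one. The batch 2 pair also lay closest in purity score, at 3.71 in knockout M390 and 3.93 in control M386, against 3.26 and 2.40 beside 3.96 in batch 1 and 2.15 beside 2.86 to 3.43 in batch 3. That pair lay closest in depth as well, at 4.20 M reads in genes in M390 and 4.34 M in M386. In batch 1 the knockouts held 3.40 and 3.35 M beside 4.19 M, and in batch 3 2.58 M beside 4.09 to 5.14 M. The part of purity or of depth in the smaller batch 2 differences was not tested.

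**Figure D3:**
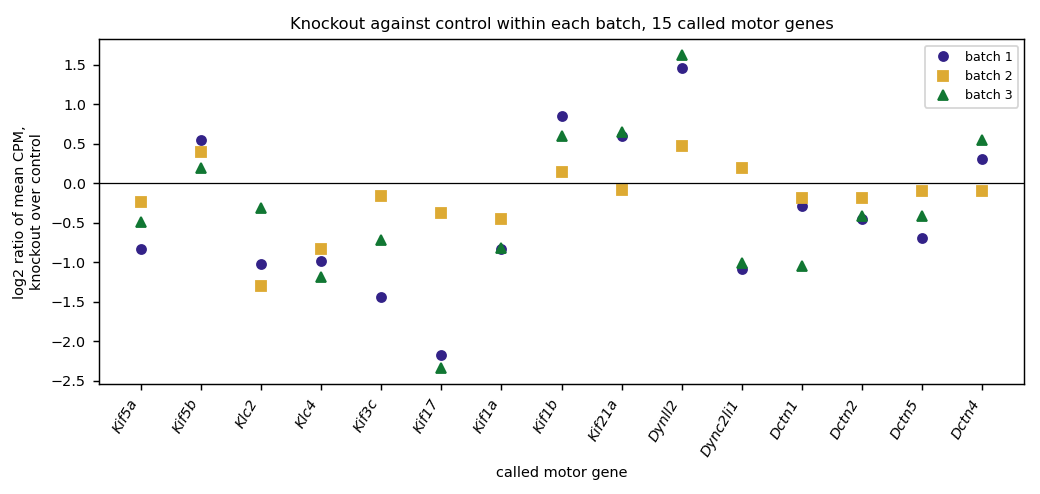
Log2 ratio of mean CPM (knockout over control, pseudocount 0.5 CPM) within batches 1, 2 and 3 for each of the 15 called motor genes. Batch 2 (squares) lies nearest 0 for 13 of them, the exceptions being Kif5b and Klc2.

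Tek itself was near the detection limit: 0 to 40 reads in controls (2.81 ± 2.75 CPM, SD, n = 7) and 0 to 14 in knockouts (1.93 ± 2.65 CPM, n = 4). Counts over the whole gene do not show whether the floxed part is missing, so Tek neither checks the labels nor goes against them.

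The kinesin-1 heavy chains moved apart. Kif5a (chr10:127225695-127266348), the form known for its neuron-restricted expression, lay at 243 to 378 CPM in controls (median 303). In knockouts it was 157 in F371, 159 in M374, 206 in M390 and 228 in M456. Every knockout lay below every control, and Kif5a fell by 0.54 ± 0.11 (adjusted p = 0.00503). Kif5b, the form made in most cell types, which lies on chromosome 18, lay at 135 to 188 CPM in controls (median 166) and at 208, 240, 178 and 200 in knockouts F371, M374, M390 and M456. Only M390 fell within the control range, and Kif5b rose by 0.37 ± 0.11 (adjusted p = 0.0229). Kif5c, the other neuronal heavy chain, was at 449 ± 52.9 CPM in controls and 445 ± 36.9 in knockouts (SD, n = 7 and 4) and did not pass (0.02 ± 0.11, adjusted p = 0.930). The read ratio of Kif5a to Kif5b, taken within each library and so free of its total, was 1.62 to 2.27 in controls (median 1.83) and 0.661 to 1.16 in knockouts (median 0.945). The ratio compares libraries and not the levels of the 2 genes, whose lengths differ. It is not adjusted for the purity score. With that score added to the model, Kif5a was at -0.44 ± 0.19 and Kif5b at 0.25 ± 0.17 (adjusted p = 0.413 and 0.573 by edgeR's test). Without M379 the adjusted p was 0.0804 for Kif5a and 0.138 for Kif5b, and without M456 it was 0.0520 and 0.0601.

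Of the kinesin light chains, which link the heavy chains to cargo, 2 of 3 tested were lower. Klc4 (chr17:46630624-46646189), whose start region is printed above, lay at 61.4 to 84.1 CPM in controls (median 77.1). The knockouts were at 50.5 in F371, 33.8 in M374, 46.3 in M390 and 31.7 in M456, all below the lowest control. Klc4 fell by 1.03 ± 0.17 (adjusted p = 0.00245), with like ratios of -0.99, -0.83 and -1.18 in batches 1, 2 and 3. Klc2 (chr19:5107746-5118298) spread more widely, from 32.1 to 80.8 CPM in controls (median 66.2). Its knockouts were at 37.4, 32.1, 19.8 and 48.6 in the same order, overlapping the controls, and Klc2 fell by 0.79 ± 0.27 (adjusted p = 0.0450). That call held in only 2 of the 11 fits that each left out 1 library, without control M476 or M477. In the other 9, among them those without M379 and M456, its adjusted p was 0.0655 to 0.242. Klc1, the most counted light chain, was 326 ± 27.0 CPM in controls and 304 ± 31.7 in knockouts and did not pass (-0.10 ± 0.10, adjusted p = 0.504). The read ratio of Klc4 to Klc1 was 0.214 to 0.259 in controls and 0.0919 to 0.169 in knockouts. Klc3 had 17 reads over all controls, with 0 to 4 in each, and 0 over all knockouts, which is too few for a fold within batches.

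Kinesin-2 motors carry membrane cargo, and also serve cilia and dendrites, and 2 of the 4 genes were lower. Kif17 (chr4:138262251-138301973), a motor known to carry NMDA receptor subunits in dendrites, had the largest fall of the called members. Controls lay between 58.3 and 126 CPM (median 78.9), and knockouts at 24.1 in F371, 14.3 in M374, 44.9 in M390 and 17.3 in M456. No knockout reached the lowest control, and Kif17 fell by 1.75 ± 0.34 (adjusted p = 0.00369). Its ratios were -2.17, -0.37 and -2.34 in batches 1, 2 and 3, so that M390 stood far closer to its control than the other knockouts did. Kif3c (chr12:3365132-3406494), an accessory motor subunit found mostly in neurons, was at 179 to 365 CPM in controls (median 273). In knockouts it was 112, 92.6, 210 and 170, of which only that of M390 lay inside the control range, and Kif3c fell by 0.83 ± 0.21 (adjusted p = 0.0114).

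Kif3a and Kif3b form the core heterodimer of kinesin-2. Kif3a was 271 to 338 CPM in controls and 247, 264, 252 and 271 in knockouts, so that all knockouts lay just below all controls, but it did not pass the test (-0.20 ± 0.09, adjusted p = 0.119). Kif3b was 112 ± 15.8 CPM in controls and 115 ± 7.93 in knockouts (0.06 ± 0.14, adjusted p = 0.777). The read ratio of Kif17 to Kif3a was 0.177 to 0.464 in controls and 0.0541 to 0.178 in knockouts, overlapping at the knockout M390. Without M379 the adjusted p was 0.0673 for Kif17 and 0.182 for Kif3c, and without M456 it was 0.0694 and 0.0927. Kif3c then had log2 fold changes of -0.48 and -0.90.

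**Figure D4:**
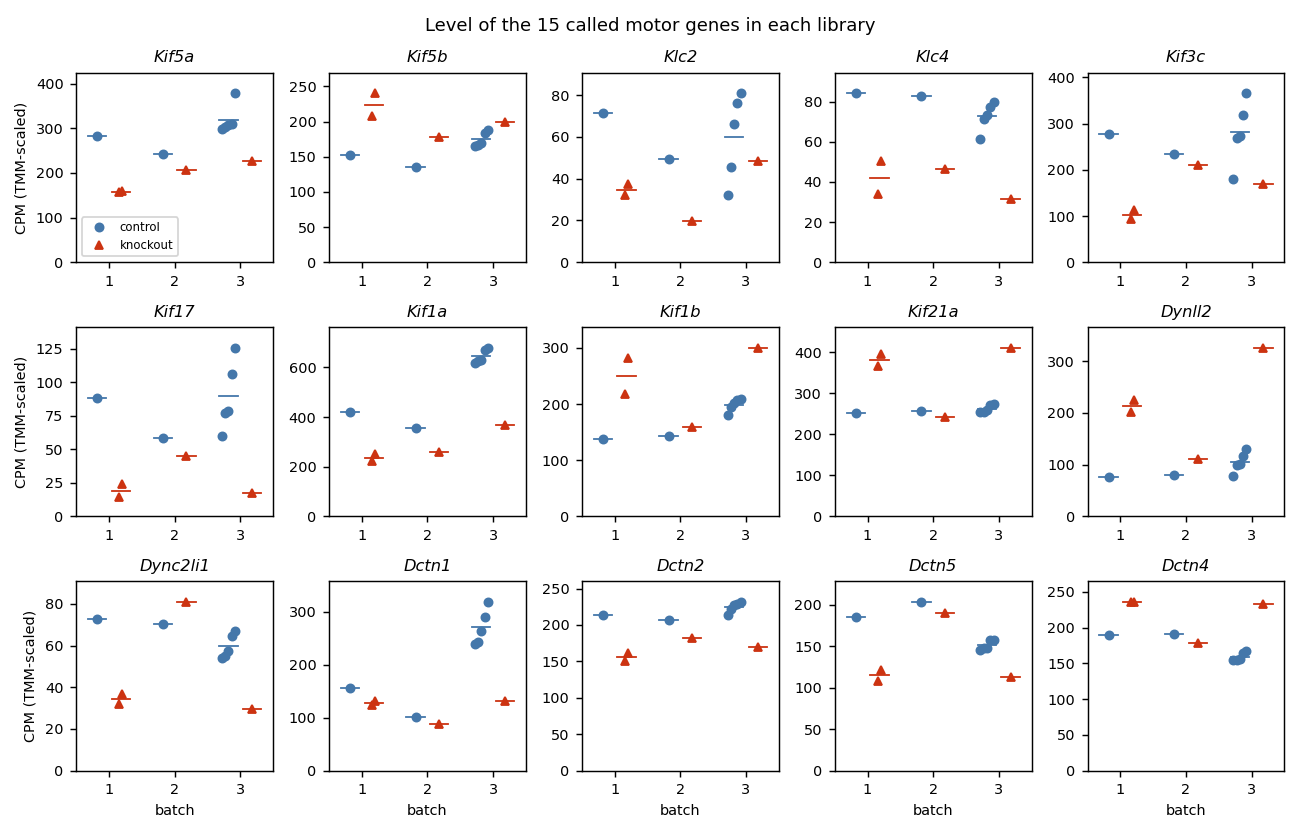
CPM (TMM-scaled, linear axis from 0) of the 15 called motor genes in each library by batch; blue circles are the 7 controls, red triangles the 4 knockouts and short lines the mean of a group within its batch. Kif1a of controls is higher in batch 3 (618 to 679) than in batches 1 and 2 (422 and 357), and in each of these 15 panels the knockout of batch 2 can be read against its own control.

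In kinesin-3, the family of fast carriers of synaptic vesicle precursors and mitochondria, Kif1a and Kif1b moved in opposite directions. Kif1a (chr1:93015455-93102039) was the most counted of all members, with 21908 reads over the 11 libraries. Its controls were at 422 in batch 1, 357 in batch 2 and 618 to 679 in batch 3. Batches 1 and 2 hold only 1 control each, so a shift by batch cannot be told from the value of that library. Knockouts were at 251 and 223 in batch 1, 261 in batch 2 and 367 in batch 3, below the controls of their own batch in every case, although M456 lay above the control of batch 2. Kif1a fell by 0.73 ± 0.09 (adjusted p = 0.00140), with ratios of -0.83, -0.45 and -0.81. Kif1b (chr4:149176319-149307773) lay at 138 to 208 CPM in controls (median 195) and at 217, 283, 158 and 300 in knockouts F371, M374, M390 and M456. It rose by 0.57 ± 0.12 (adjusted p = 0.00608), with M390 again the knockout within the control range. The call was lost without M379 (adjusted p = 0.0583) and without M456 (adjusted p = 0.0927).

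The read ratio of Kif1a to Kif1b was 2.50 to 3.48 in controls (median 3.06) and 0.790 to 1.65 in knockouts (median 1.19), with no overlap. The pairs used for such ratios were chosen after their values had been seen, and the ratios are given without a test. The other 4 tested kinesin-3 genes did not pass. Kif13a, a carrier of endosomes, was 27.3 ± 5.38 CPM in controls and 39.3 ± 7.96 in knockouts (0.58 ± 0.24, adjusted p = 0.0833). Kif1c, Kif16b and Kif13b were under 20 CPM in the mean of either group, with adjusted p of 0.292, 0.758 and 0.584.

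**Figure D5:**
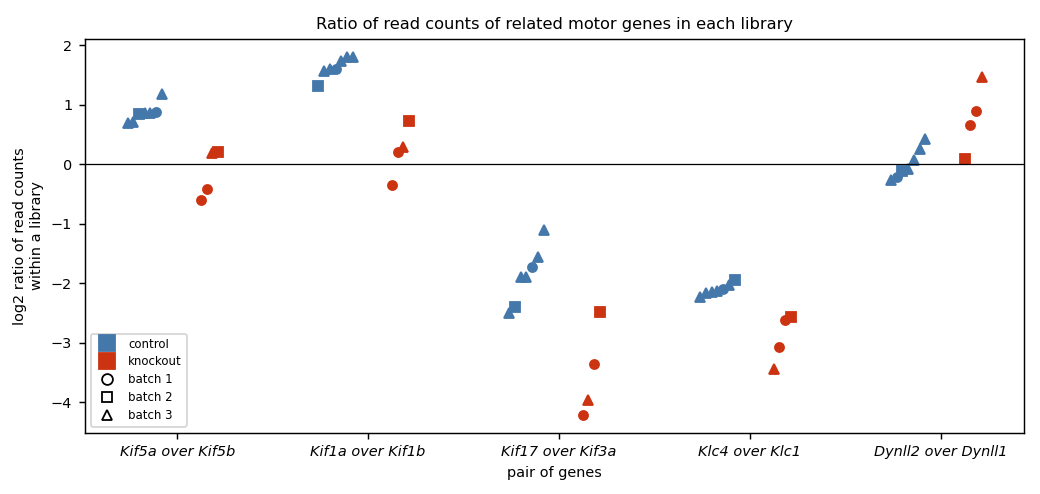
Log2 ratio of the read counts of related motor genes within each library (vertical axis) for 5 pairs (horizontal axis), with controls in blue, knockouts in red and the batch given by the marker shape. Knockouts lie below controls without overlap for Kif5a over Kif5b, Kif1a over Kif1b and Klc4 over Klc1, while the ranges overlap for Kif17 over Kif3a and Dynll2 over Dynll1.

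Kif21a, a kinesin-4 that slows microtubule growth, was the steadiest of the called genes among controls, at 252 to 273 CPM (SD 8.85, n = 7; chr15:90933275-91050382). The knockouts were at 367 in F371, 396 in M374 and 412 in M456, far above that range, and at 242 in M390, below it. Kif21a rose by 0.45 ± 0.11 (adjusted p = 0.0102), with ratios of 0.60, -0.08 and 0.65 in batches 1, 2 and 3. Without M379 the adjusted p was 0.0763, and without M456 it was 0.217 with a log2 fold change of 0.30. Its paralog Kif21b had 187 reads in all and ranged from 0 to 7.61 CPM in controls and 0.803 to 9.80 in knockouts (1.67 ± 1.32, adjusted p = 0.370). Kif21b was higher in the knockouts of batches 1 and 2 and lower in that of batch 3. Kif27, a relative of the kinesin-4 genes linked to cilia, had 147 reads in all (0.09 ± 0.69, adjusted p = 0.944).

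Kif2a, a kinesin-13 that takes microtubules apart at their ends, did not pass, at 149 ± 19.5 CPM in controls and 173 ± 30.6 in knockouts (0.05 ± 0.10, adjusted p = 0.741). The 5 tested genes of the list of mitotic and other kinesins (Kif18a, Kif22, Kif26b, Kif2c and Kif9) had 0 calls by edgeR's test. Their adjusted p values ran from 0.167 (Kif9, -0.86 ± 0.45) to 0.861 (Kif2c, 0.21 ± 0.73). Kif26b was the most counted of them, with 1629 reads, and Kif2c the least, with 99. Kif1bp, the kinesin-binding protein, was 119 ± 16.2 CPM in controls and 152 ± 22.4 in knockouts, just past the threshold on the far side (0.39 ± 0.14, adjusted p = 0.0515).

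Of cytoplasmic dynein 1, the motor for transport toward the cell body, 0 of 5 tested subunits passed. The heavy chain Dync1h1, which holds the motor, was the nearest, at 52.7 to 76.8 CPM in controls (median 61.1) and 85.9, 108, 45.6 and 109 in knockouts F371, M374, M390 and M456. In 3 knockouts it lay above every control and in M390 below every control, and the fit gave 0.45 ± 0.21 (adjusted p = 0.123, unadjusted p = 0.0480). The intermediate chain Dync1i1, the form made mainly in neurons, was 310 ± 16.8 CPM in controls and 262 ± 45.6 in knockouts (-0.20 ± 0.11, adjusted p = 0.176). Its relative Dync1i2, found in most cells, was 115 ± 20.6 and 135 ± 10.8 (0.11 ± 0.12, adjusted p = 0.523). The light intermediate chains, which hold the adaptors, gave -0.13 ± 0.12 for Dync1li1 (adjusted p = 0.431) and -0.01 ± 0.13 for Dync1li2 (adjusted p = 0.965). With batch 2 left out, Dync1h1 passed as higher (0.78 ± 0.18, adjusted p = 0.00425). The fits without M390 or M386 alone (adjusted p = 0.00430 and 0.00418) are no further support. Either loss leaves batch 2 without a comparison of genotypes, so they nearly repeat the fit without that batch.

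Dynein 2 moves cargo within cilia. Its light intermediate chain Dync2li1 (chr17:84626475-84655568) was 53.9 to 73.0 CPM in controls (median 64.5) and 36.6, 32.1 and 29.3 in knockouts F371, M374 and M456, but 81.0 in M390. The knockouts thus lay on either side of the control range, and Dync2li1 fell by 0.72 ± 0.22 in the fit (adjusted p = 0.0269), with ratios of -1.08, 0.20 and -1.01 in batches 1, 2 and 3. It did not pass without F371, M374, M379 or M456, with adjusted p of 0.0525, 0.0646, 0.271 and 0.231. The heavy chain Dync2h1 pointed the other way without passing, at 30.5 ± 9.47 CPM in controls and 41.3 ± 9.46 in knockouts (0.71 ± 0.26, adjusted p = 0.0592).

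Among the dynein light chains, small dimers that brace the motor and also bind many other proteins, Dynll2 (chr11:87979525-88003817) had the largest rise of any called member. Controls lay at 76.8 to 130 CPM (median 98.5). Knockouts were at 224 in F371, 201 in M374, 110 in M390 and 326 in M456, of which only M390 lay among the controls. Dynll2 rose by 1.31 ± 0.18 (adjusted p = 0.00140), with ratios of 1.46, 0.47 and 1.62 in batches 1, 2 and 3. It passed in all 11 fits that left out 1 library and in every other fit except the 2 with a covariate, where it was 0.71 ± 0.23 with the library total and 1.25 ± 0.30 with the purity score.

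Dynll1, the close relative of Dynll2, was 95.2 ± 6.89 CPM in controls and 118 ± 16.8 in knockouts and did not pass (0.34 ± 0.13, adjusted p = 0.0618). The read ratio of Dynll2 to Dynll1 was 0.838 to 1.34 in controls and 1.06 to 2.75 in knockouts. Dynlrb1 was 145 ± 14.2 and 163 ± 5.72 CPM (0.14 ± 0.11, adjusted p = 0.384), and Dynlt3 253 ± 34.6 and 229 ± 45.6 (-0.19 ± 0.13, adjusted p = 0.302). Dynlt1a and Dynlt1b, which belong to a cluster of near-identical copies whose reads may be split or dropped in counting, gave -0.89 ± 0.55 and -1.27 ± 0.59 (adjusted p = 0.249 and 0.124) and are uncertain for that reason.

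Of the 6 dynactin subunits, Dctn1, Dctn2 and Dctn5 were lower and Dctn4 was higher. Dctn1 (chr6:83165909-83200118), the p150 arm that holds the microtubule, varied strongly between controls. It was at 155 CPM in the only control of batch 1, 101 in that of batch 2 and 239 to 319 in batch 3. The knockouts were at 131 and 123 in batch 1, 88.8 in batch 2 and 131 in batch 3, each below the controls of its batch. Dctn1 fell by 0.56 ± 0.16 (adjusted p = 0.0198), with ratios of -0.29, -0.18 and -1.04, so that most of the difference stands in batch 3. Without M456 its log2 fold change was -0.25 ± 0.14 (adjusted p = 0.319), and without M379 the adjusted p was 0.0511.

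Dctn2 (chr10:127266262-127281959), dynamitin, which joins the arm to the rest of the complex, was 206 to 232 CPM in controls (median 222). All knockouts were lower, at 162, 151, 182 and 169, and Dctn2 fell by 0.37 ± 0.09 (adjusted p = 0.0125). Its annotated span overlaps that of Kif5a by 87 bases (chr10:127266262-127266348). The strand setting of the counting is not given in the sources used here, so reads from that stretch cannot be assigned with certainty, and both genes lay below every control in each knockout. Dctn5 (chr7:122133041-122149044), a subunit of the pointed end of the complex, was at 185 CPM in the control of batch 1, 204 in that of batch 2 and 146 to 157 in batch 3, and at 121, 108, 190 and 113 in knockouts F371, M374, M390 and M456. It fell by 0.43 ± 0.11 (adjusted p = 0.0148). Without M379 and without M456 the adjusted p was 0.118 and 0.105 for Dctn2, and 0.206 and 0.102 for Dctn5.

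Dctn4, another pointed-end subunit, encoded on chromosome 18, was 155 to 191 CPM in controls (median 165) and 236, 236, 179 and 233 in knockouts, and rose by 0.31 ± 0.11 (adjusted p = 0.0484). That value stands close to the threshold. The call held only when M390, M386 or M476 was the library left out, and in the other 8 fits its adjusted p was 0.0588 to 0.538, the highest without M456. The remaining subunits, Dctn3 and Dctn6, gave -0.20 ± 0.12 and -0.29 ± 0.13 (adjusted p = 0.239 and 0.102). The read ratio of Dctn1 to Dctn4, which is not drawn, was 0.528 to 1.94 in controls and 0.496 to 0.563 in knockouts, with overlap.

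The 24 members that could not be tested were mostly kinesins of cell division and cilia. Kif12, Kif22-ps and Kif2b had 0 reads in every library, where 3 reads in 1 library correspond to 0.595 to 1.20 CPM. A further 8 had 1 to 10 reads over all libraries: Dynlt1c (5), Kif16bos (1), Kif18b (9), Kif19a (2), Kif23 (3), Kif28 (3), Kif4-ps (1) and Kif7 (9). The other 13 were Kif20a (100 reads), Kif24 (97), Dynlt1f (67), Kif6 (53), Dynlrb2 (27), Kif15 (23), Dynlt1-ps1 (22), Kif11 (17), Klc3 (17), Kif14 (16), Kif20b (16), Kif26a (16) and Kif4 (13). Kif20b, a motor of cell division, had 16 reads in controls, all of them in batch 3, and 0 in knockouts. In M456, the only knockout of that batch, 3 reads correspond to 1.20 CPM, above 4 of the 5 controls, so no lower level can be claimed at this depth. Members took 0.620% ± 0.0192 of reads in genes in controls and 0.572% ± 0.0215 in knockouts (SD, n = 7 and 4).

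Genes that work with the motors were read from lists of their own. Of 50 tested adaptors and regulators, 6 were higher and 10 lower. Pafah1b1, or Lis1, which holds dynein on the microtubule and primes it, was 238 ± 22.6 CPM in controls and 393 ± 21.4 in knockouts, with all knockouts above all controls, and rose by 0.73 ± 0.10 (adjusted p = 0.00140). Bicdl1, an adaptor that ties dynein and kinesin to Rab6 vesicles, fell by 1.08 ± 0.20 (adjusted p = 0.00297), from 92.3 ± 14.0 CPM to 40.3 ± 9.72. Snapin, which links dynein to late endosomes, fell by 0.63 ± 0.15 (adjusted p = 0.00906), and Rhot2, or Miro2, which anchors motors on mitochondria, rose by 0.72 ± 0.17 (adjusted p = 0.00983). Actr1a and Actr1b, which make the dynactin filament, fell by 0.39 ± 0.12 and 0.37 ± 0.10 (adjusted p = 0.0347 and 0.0149). They are named here after their values had been seen, as partners of the dynactin subunits. The other Actr gene and the Capz genes of this list did not pass. Actr10, Capzb and Capza1 gave -0.40 ± 0.15, -0.32 ± 0.11 and -0.82 ± 0.34 (adjusted p = 0.0663, 0.0520 and 0.0830). Capza2 pointed the other way, at 0.24 ± 0.13 (adjusted p = 0.171).

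Of 49 tested microtubule-associated proteins and track modifiers, 7 were higher and 9 lower. Ttll1, which adds glutamate chains to tubulin, fell by 1.23 ± 0.21 (adjusted p = 0.00261) and Map6, a stabiliser of microtubules, by 0.83 ± 0.16 (adjusted p = 0.00383). Mapre3, or EB3, which tracks growing ends, fell by 0.54 ± 0.11, and Map9 rose by 0.51 ± 0.10 (adjusted p = 0.00393 for each). Of 14 tested kinesins, axonemal dyneins and dynein 2 parts that the symbol rule leaves out, 0 were higher and 6 lower by edgeR's test, where the Wald test of DESeq2 called 1 higher. Wdr34, an intermediate chain of dynein 2, fell by 1.01 ± 0.17 (adjusted p = 0.00261), the dynein light chain Dnal4 by 0.99 ± 0.19 (adjusted p = 0.00366), the minus-end kinesin Kifc2 by 0.88 ± 0.18 (adjusted p = 0.00404) and Dnah7a, an axonemal heavy chain, by 3.01 ± 0.79 (adjusted p = 0.0141). Dnah7a was low in reads, at 6.97 ± 2.75 CPM in controls and 1.71 ± 2.96 in knockouts (SD), with overlap. Its ratios were -3.71, -0.65 and -2.89 in batches 1, 2 and 3. Dnah7b, in the same list, did not pass (-0.16 ± 0.45). Whether reads were split between Dnah7a and Dnah7b in counting was not tested. Of 14 tested unconventional myosins, which walk on actin, Myo1c alone passed and fell by 1.52 ± 0.45 (adjusted p = 0.0243).

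The adaptor and track lists had shares of 32.0% and 32.7% called, the genes outside the symbol rule 42.9% and the myosins 7.14%, beside 24.4% over all tested genes. The 6 lower genes outside the symbol rule, of 14, stand beside 13.4% of all genes called lower. All of these lists had 0 calls in either direction with the library total or the purity score as covariate. Without M379 the adaptor list had 2 higher and 0 lower, and without M456 1 and 1. The track list then had 3 higher and 1 lower, and 0 and 1, and the genes outside the symbol rule 2 and 1 lower. Myo1c passed without M379 and not without M456. Over all tested genes 3.93% were called without M379 and 2.43% without M456.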

How the data were processed

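The deposited files, 1 for each library, hold unnormalized gene-level counts in whole numbers. Per the submitters' processing notes, STAR, HTSeq and the build GRCm38 were used. The sources used here do not give versions, the strand setting or any removal of duplicates. Reads carry no molecular identifiers, so they are not independent molecules. The 5 summary lines that name no gene stayed out of totals and tests.

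Genes were tested in R 4.3.3 with edgeR 4.0.16 (filterByExpr on genotype, TMM, quasi-likelihood fit with batch and genotype, 7 residual degrees of freedom), two-sided, adjusted by Benjamini-Hochberg with a threshold of 0.05. CPM used TMM-scaled totals, and group means are not adjusted for batch. Within-batch ratios used a pseudocount of 0.5 CPM. No batch was tested alone, since each has 1 library in at least 1 group. Tested on simulated counts for 13375 genes with 200 changed, the fit recovered 52% at 2-fold and 78% at 4-fold, with 6 false calls. Apart from library size, the simulated genotypes differed in these 200 genes alone, with no shift in purity. In the data 24.4% of genes passed and the purity score moved with genotype, so the 6 false calls do not measure the error rate here. The most alike libraries, controls M477 and M479, differed beyond sampling noise (chi-square over its degrees of freedom 2.40), and all 11 were kept as separate replicates.

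Members and lists were chosen with earlier results of these data known. Named genes were all called members, main neuronal transport motors, untested members by total count, and up to 4 called genes with the smallest p per other list. Levels per length were not computed, since the tables used here give gene spans and no transcript lengths, and so counts are not compared between genes as levels. Gene positions and promoters came from RefSeq tables of the same build. Alternatives were DESeq2 1.42.0 size factors and Wald test, limma 3.58.1 voom with sample weights, library totals alone, other filters, no batch term, libraries left out, animals tagged M, covariates, thinning and other thresholds.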

Additional observations from a re-analysis of the deposited data

Results flagged for a closer look

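In 10 of the 90 groups examined (45 tested members in 4 knockouts and in 7 controls), the highest or lowest library stood apart by Dixon's criterion at the 95% level, which chance alone flags in about 1 group in 20. The value given is the gap to the nearest library divided by the range of the group, both on the log2 CPM scale. Knockout M390 was low for Dctn1 (88.8 CPM against 123 for the next, gap 0.831 of the range) and for Dctn4 (179 against 233, gap 0.953), both called members. Groups were examined over all batches together, and control M386, of the same batch as M390, was also the lowest control for Dctn1. Knockout M456 was low for Dctn3 (104 against 170, gap 0.979) and high for Kif1bp (186 against 144, gap 0.889).

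Control M476 was low for Dync1li2 (163 against 231, gap 0.725), Kif5c (344 against 430, gap 0.596) and Klc1 (272 against 319, gap 0.585). Control F473 was low for Dynlt1a (3.84 against 5.93, gap 0.593), control M480 low for Kif1c (3.37 against 6.95, gap 0.656), and control M386 high for Kif18a (8.55 against 3.37, gap 0.577). The last 3 genes are at under 20 CPM, where few reads stand behind a value.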

How the results depend on the processing

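All 15 called motor genes kept their sign in the 23 other fits. The count of higher members, 5 as reported, was 3 without a filter on low counts, 3 without the batch term, 10 by the Wald test of DESeq2, 9 with batch 2 left out, 3 in animals tagged M, 9 at an adjusted p under 0.10 and 2 under 0.01. The count of lower members, 10 as reported, was 6 in animals tagged M and 4 at an adjusted p under 0.01. With the library total or the purity score as covariate both counts were 0. With 1 library left out, higher members ran from 1 (without M379) to 9 (without M386) and lower members from 2 (without M379 or M456) to 11. The share of all tested genes called, in both directions together, moved too. It was 24.4% as reported, 9.78% without a filter, 25.1% without the batch term, 31.2% by the Wald test and 34.1% with batch 2 left out. In animals tagged M it was 16.3%, without M386 34.8%, without M379 3.93% and without M456 2.43%. For all of these changes the cause was not tested. With no filter, 30317 genes entered and the median over all genes was -0.21. Of the 135 within-batch ratios of tested members, a pseudocount of 2 CPM changed the sign of 0 and moved 7 by at least the SD of log2 CPM over the 5 controls of batch 3. These belong to Dynlt1a, Dynlt1b, Kif18a and Kif21b, all low in reads. Levels per coding length were not run for lack of lengths. No paired analysis was possible because the replicate tags name single animals and none is shared between the groups. Depth limits the members that fail the filter and all genes under a few CPM, and the precision of the knockout M456, the shallowest library.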
